A study of Caenorhabditis elegans with 4 samples.

Results

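The 33 proteasome subunit genes of *C. elegans* were compared between wild-type animals on a diet of the lactic acid bacterium *L. paracasei* subsp. *paracasei* 2004 and those on *E. coli* OP50, the standard laboratory food. The members were all genes whose symbol begins with pas-, pbs-, rpn- or rpt-, which gave 33 of the 46745 genes for which counts could be summed. The core particle was represented by 14 genes, 7 pas- genes for the alpha ring and 7 pbs- genes for the beta ring. The regulatory particle was represented by 19 genes, 6 rpt- genes for the ATPase ring and 13 rpn- genes for the non-ATPase subunits. The members lay on chromosome I (10 genes), II (7), III (8), IV (3) and V (5), so they were spread over the genome and did not form a cluster at one locus.

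The proteasome is the protease that degrades proteins carrying ubiquitin chains in the cytosol and nucleus. Its core is a barrel in which outer alpha rings guard the entrance and inner beta rings hold the cutting sites, and the regulatory particle binds the ubiquitin chain, removes it, unfolds the substrate and feeds it into the barrel. In *C. elegans*, the transcription factor SKN-1A, a relative of mammalian Nrf1, raises subunit genes when proteasome function is impaired, and proteasome activity has been linked to longevity in animals without a germline.

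The samples were 2 of 2004-fed animals and 2 of OP50-fed animals. Both foods were given for 3 days, starting 3 days after hatching, when the animals are young adults, and all animals were Bristol strain N2 with the wildtype genotype. The labels give S basal medium for the culture and the methods of the study give NGM plates. Each sample was total RNA from many whole animals, so all tissues, the germline and any embryos inside the animals contributed to each value. In such bulk RNA, fewer cells of a type and less RNA per cell cannot be told apart.

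The libraries summed to 46350926 and 46339828 counts in 2004-fed samples, and to 44548901 and 50504029 counts in OP50-fed samples. Levels are given as TMM-scaled CPM, which is counts scaled to a common library size after correction of the library size with edgeR's TMM factors (0.927 to 1.06), and a log2 fold change is 2004-fed over OP50-fed. A gene was called at a Benjamini-Hochberg adjusted p under 0.1 in the quasi-likelihood test of edgeR over 12505 genes, at any fold. In simulated data of this design, the test recovered 55 of 100 genes changed by 1 on the log2 scale and 91 of 100 genes changed by 2, with 24 false calls. Smaller changes were not simulated. All other genes were left unchanged in the simulation, whereas 49.1% of all genes tested were called in the real data. The adjusted p thus sets a different cut there. These recoveries do not show what share of changed genes was found in the real data. Neither the labels nor the methods say that the samples of a food came from separate cultures, so the p-values measure the spread between these samples, which may be technical. Body muscle markers were lower in 2004-fed animals in 6 of 6 genes (summed CPM 479 and 451 against 1613 and 1312), and neuron markers were called lower in 5 of 6 (median log2 fold change -0.78). Intestine markers were called higher in 5 of 7, embryo markers in 4 of 7 tested and germline and oocyte markers in 3 of 12. Over all genes tested, 23.9% were called higher and 25.2% lower. The 1 epidermis marker tested was lower, and of 33 sperm markers 2 were tested and 1 was called lower. The part of these other cell types in the results on subunit genes was not tested.

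The proteasome genes differed little between the foods in a data set in which 49.1% of all genes tested were called. All 33 members passed the filter on low counts, and 3 were called, all of them in the regulatory particle: *rpn-1* and *rpn-10* were higher and *rpn-5* was lower in 2004-fed animals. Over all genes tested, 23.9% were called higher and 25.2% lower. None of the members passed a fold of 2, which 22.4% of all genes passed together with the adjusted p. The log2 fold change lay within 0.4 of 0 in 32 of 33 members, and in 41.6% of all genes tested. Its median absolute value was 0.19 over the members and 0.51 over all genes. All genes tested include genes near the filter of 0.5 CPM, and their median SE was 0.22, against 0.17 over the members. The part of expression level in this contrast was not tested.

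In the core particle, 0 of 14 genes were called by edgeR, and 0 had an unadjusted p under 0.05. DESeq2 and limma-voom also called 0 of them. The log2 fold changes ran between -0.34 and 0.26, with a median of -0.062 against -0.028 over all genes. In the regulatory particle, 2 of 19 genes were called higher and 1 lower, and the median was -0.088. The direction was positive in 6 core and 7 regulatory genes and negative in 8 core and 12 regulatory genes. These directions depended on the OP50-fed samples. The sign differed between the fits without OP50-fed replicate 1 and without OP50-fed replicate 2 in 10 of 14 core and 5 of 19 regulatory genes. The count of directions therefore cannot show whether a particle moved as a block.

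**Figure D1:**
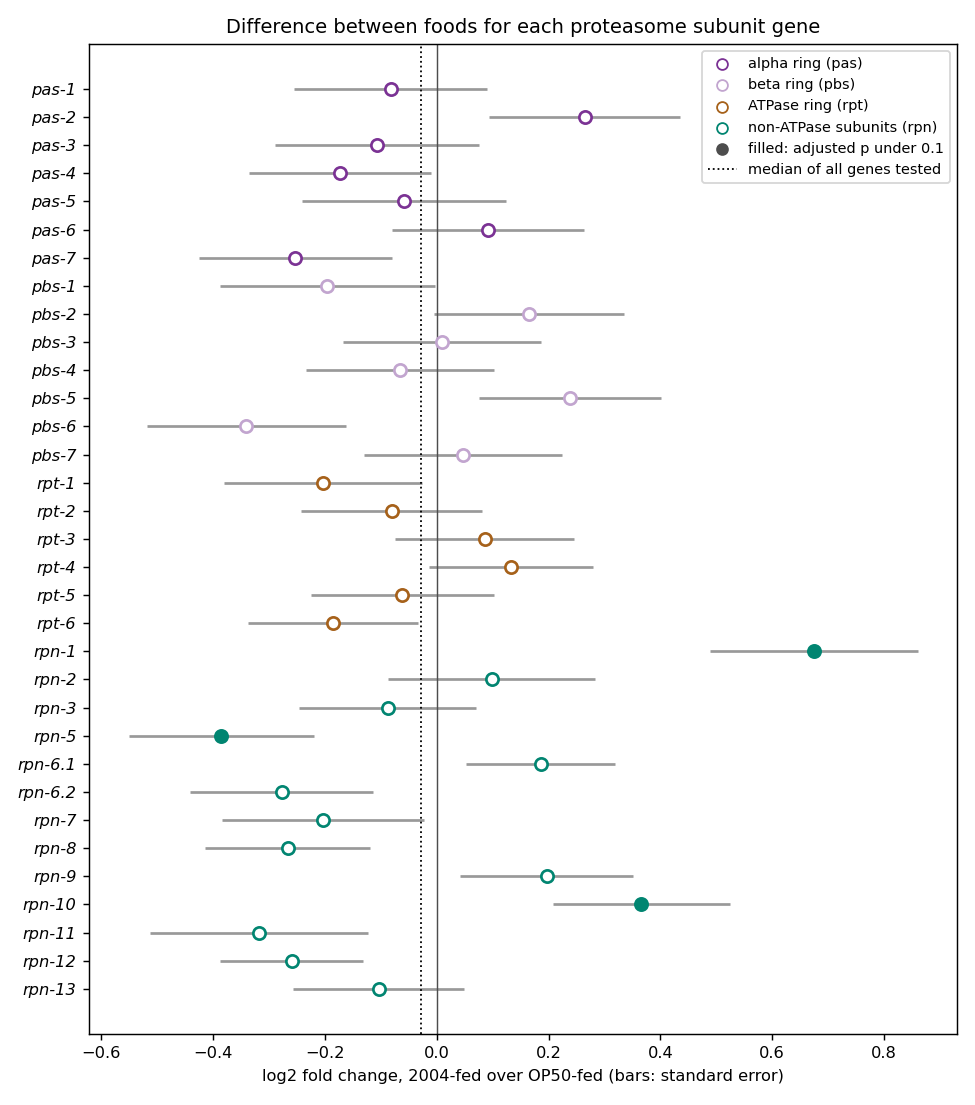
Log2 fold change of each proteasome subunit gene, 2004-fed over OP50-fed (x axis), with the standard error of the edgeR fit as a bar. Genes are grouped by ring, filled points have an adjusted p under 0.1 and the dotted line is the median of all genes tested (-0.028). The 3 filled points are *rpn-1* (0.67), *rpn-10* (0.37) and *rpn-5* (-0.39).

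The alpha subunits form the outer rings, and their tails close the pore of the barrel until the regulatory particle docks. The highest log2 fold change in this ring was that of *pas-2*, at 0.26 (SE 0.17, adjusted p = 0.238). The lowest was that of *pas-7*, at -0.25 (SE 0.17, adjusted p = 0.264). These were also the members of the ring whose foods did not overlap. *pas-2* had 234.4 and 235.2 CPM in 2004-fed samples, against 224 and 167 CPM in OP50-fed samples. *pas-7* had 236 and 234 CPM in 2004-fed samples, against 319 and 242 CPM in OP50-fed samples. In both genes the 2004-fed samples were nearly equal and the OP50-fed samples lay far apart, with the nearer OP50-fed sample close to the 2004-fed values. The other 5 alpha genes, *pas-1*, *pas-3*, *pas-4*, *pas-5* and *pas-6*, overlapped between the foods and had log2 fold changes between -0.17 (*pas-4*) and 0.092 (*pas-6*).

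The beta ring holds the catalytic sites. In yeast and mammals the beta 1 subunit cuts after acidic residues, beta 2 after basic residues and beta 5 after hydrophobic residues, and the worm genes of these numbers are *pbs-1*, *pbs-2* and *pbs-5*. *pbs-1*, on chromosome IV (1708814 to 1709745, minus strand), had 355 and 408 CPM in 2004-fed samples, against 498 and 376 CPM in OP50-fed samples. *pbs-2*, on chromosome I (12967216 to 12968280, minus strand), had 243.0 and 242.5 CPM in 2004-fed samples, against 246.6 and 186.5 CPM in OP50-fed samples. *pbs-5*, on chromosome I (14719167 to 14720477, minus strand), had 225 and 206 CPM in 2004-fed samples, against 205 and 161 CPM in OP50-fed samples. The foods overlapped for *pbs-1* and *pbs-2*, and for *pbs-5* the lower 2004-fed sample stood barely above the higher OP50-fed sample. The log2 fold change was -0.20 (SE 0.19, adjusted p = 0.439) for *pbs-1*, 0.16 (SE 0.17, adjusted p = 0.462) for *pbs-2* and 0.24 (SE 0.16, adjusted p = 0.263) for *pbs-5*. None of the catalytic subunits was called in either direction.

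Of the beta subunits without a catalytic site, *pbs-6* had the lowest log2 fold change of the core particle. It had 276 and 309 CPM in 2004-fed samples, against 414 and 326 CPM in OP50-fed samples. Both 2004-fed samples were below both OP50-fed samples, but the log2 fold change of -0.34 (SE 0.18) was not called (adjusted p = 0.149). *pbs-3*, *pbs-4* and *pbs-7* overlapped between the foods, with log2 fold changes of 0.0089, -0.065 and 0.048.

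The 6 rpt- genes encode the AAA ATPases whose ring unfolds the substrate and threads it into the core. None was called higher or lower by edgeR, none had an unadjusted p under 0.05, and DESeq2 and limma-voom called 0 of them. Their log2 fold changes were the narrowest of the 4 groups, between -0.20 (*rpt-1*) and 0.13 (*rpt-4*), with *rpt-6* at -0.19, *rpt-2* at -0.080, *rpt-5* at -0.062 and *rpt-3* at 0.086. Summed over the ring, they gave 1593 and 1584 CPM in 2004-fed samples, against 1806 and 1513 CPM in OP50-fed samples. The foods overlapped in this sum, and the OP50-fed samples lay on both sides of the 2004-fed samples. *rpt-4* shares 1177 bases of its span with *rpoa-49* and 1011 bases with *nfyc-1*, both on the opposite strand, and no source used here says that strand was used in counting, so reads of these genes cannot be told apart there.

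*rpn-1* had the largest difference of all members. Its product is, with that of *rpn-2*, one of the large scaffold subunits at the base of the regulatory particle, and in yeast Rpn1 is a docking site for ubiquitin and for the deubiquitinating enzyme Ubp6. The gene lies on chromosome IV (6906420 to 6909913, minus strand). It had 475 and 431 CPM in 2004-fed samples, against 323 and 245 CPM in OP50-fed samples. Both 2004-fed samples stood above both OP50-fed samples, and the gap between the foods was wider than the gap within either food. The log2 fold change was 0.67 (SE 0.19, adjusted p = 0.0163, edgeR), a 1.60-fold higher level in 2004-fed animals. The call was lost without 2004-fed replicate 1 (log2 fold change 0.60, adjusted p = 0.132), and *rpn-1* was called in every other fit on summed counts. The scaffold partner *rpn-2*, the member with the most counts, had 551 and 591 CPM in 2004-fed samples, against 578 and 488 CPM in OP50-fed samples, and was not called (log2 fold change 0.098, adjusted p = 0.694).

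The ubiquitin receptors of the regulatory particle are the products of *rpn-10* and *rpn-13*, besides *rpn-1*. *rpn-10*, on chromosome I (10730712 to 10732424, minus strand), had 179.6 and 185.6 CPM in 2004-fed samples, against 160.0 and 123.4 CPM in OP50-fed samples. Both 2004-fed samples were above both OP50-fed samples, and the OP50-fed samples lay further apart from each other than the higher of them lay from the 2004-fed samples. The log2 fold change was 0.37 (SE 0.16, adjusted p = 0.0884, edgeR), or 1.29-fold. The call was lost without a filter on low counts (adjusted p = 0.131) and without any 1 of 3 samples: 2004-fed replicate 1 (0.242), 2004-fed replicate 2 (0.2997) and OP50-fed replicate 2 (0.335). *rpn-13* had 194 and 199 CPM in 2004-fed samples, against 229.7 and 192 CPM in OP50-fed samples, and its log2 fold change was -0.10 (SE 0.15, adjusted p = 0.612).

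The lid of the regulatory particle includes the products of *rpn-3*, *rpn-5*, *rpn-6.1*, *rpn-7*, *rpn-8*, *rpn-9*, *rpn-11* and *rpn-12*. Of these, *rpn-11* encodes the metalloprotease that cuts the ubiquitin chain off the substrate. *rpn-5*, a lid scaffold gene on chromosome II (4696418 to 4698427, minus strand), had 245 and 274 CPM in 2004-fed samples, against 366 and 312 CPM in OP50-fed samples. Both 2004-fed samples were below both OP50-fed samples. The log2 fold change was -0.39 (SE 0.17, adjusted p = 0.0877, edgeR), or 0.766-fold. The call was lost with RLE size factors (adjusted p = 0.117), without a filter (0.138), with a filter of 0.5 CPM in at least 1 sample (0.101) and without 2004-fed replicate 1 (0.496), 2004-fed replicate 2 (0.305) or OP50-fed replicate 1 (0.174).

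*rpn-11*, on chromosome II (4043055 to 4044546, minus strand), had 315 and 381 CPM in 2004-fed samples, against 494 and 373 CPM in OP50-fed samples. The foods overlapped, since the lower OP50-fed sample was below the higher 2004-fed sample, and the gene was not called (log2 fold change -0.32, SE 0.20, adjusted p = 0.216). Its lid partner *rpn-8* had a log2 fold change of -0.27 (SE 0.15, adjusted p = 0.174). The remaining lid genes ran between -0.26 (*rpn-12*) and 0.20 (*rpn-9*), with *rpn-7* at -0.20 and *rpn-3* at -0.088. None of these was called. *rpn-7* shares 485 bases of its span with *nemt-1* on the opposite strand.

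The lid subunit Rpn6 is encoded by a pair of genes in *C. elegans*. *rpn-6.1*, known in this species for its raised level and its role in long-lived animals that lack a germline, lies on chromosome III (6959110 to 6962001, minus strand). It had 134 and 122 CPM in 2004-fed samples, against 117 and 108 CPM in OP50-fed samples. Its paralog *rpn-6.2*, on the same chromosome (8999817 to 9001999, minus strand), had 17.4 and 16.4 CPM in 2004-fed samples, against 21.2 and 19.7 CPM in OP50-fed samples. The foods did not overlap for either gene, and the paralogs lay on opposite sides, with *rpn-6.1* above and *rpn-6.2* below in 2004-fed animals. For *rpn-6.2* this rested on the transcript F59B2.5a in 1 sample. It had 0 and 26 counts in 2004-fed samples, against 0 and 296 counts in OP50-fed samples. The other transcript, F59B2.5b, overlapped, with 855 and 717 counts in 2004-fed samples, against 877 and 742 counts in OP50-fed samples (log2 fold change -0.090, SE 0.26). Neither was called, with log2 fold changes of 0.19 (SE 0.13, adjusted p = 0.287) for *rpn-6.1* and -0.28 (SE 0.16, adjusted p = 0.197) for *rpn-6.2*. Reads from stretches that the paralogs share may have been split between them by the counting.

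Per length, the core genes stood higher than the regulatory genes, as CPM per kilobase of exonic length. The core median was 281 CPM per kilobase in 2004-fed and 285 in OP50-fed animals, and the regulatory median was 166 in 2004-fed and 175 in OP50-fed animals. Within the core, *pbs-1* was highest (464 in 2004-fed, 532 in OP50-fed) and *pbs-5* lowest (204 in 2004-fed, 173 in OP50-fed), a spread of 2.28-fold in 2004-fed and 3.08-fold in OP50-fed animals. Within the regulatory particle, *rpn-11* was highest (282 in 2004-fed, 351 in OP50-fed) and *rpn-6.2* lowest (10.9 in 2004-fed, 13.2 in OP50-fed). *rpn-6.1* was next to last, at 77.8 in 2004-fed and 68.4 in OP50-fed animals. Every member was measured far above the limit that a count of 0 allows (3 counts, at most 0.0673 CPM, counting error only), and the lowest count of any member was 743 (*rpn-6.2*, 2004-fed replicate 2).

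**Figure D2:**
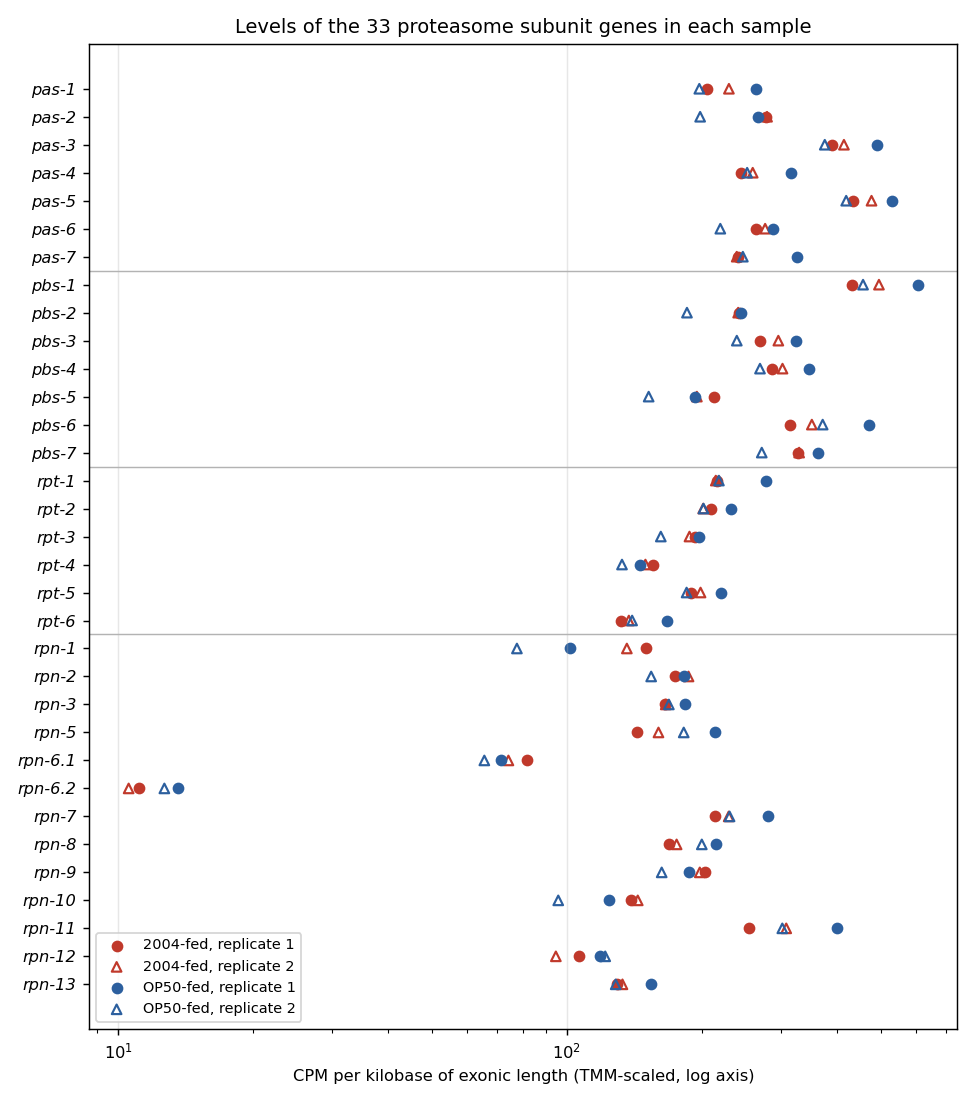
Level of each of the 33 genes in each sample, as TMM-scaled CPM per kilobase of exonic length on a log axis, with filled circles for replicate 1 and open triangles for replicate 2. Between foods most genes overlap or nearly touch, *rpn-6.2* stands apart at about 10.9 (2004-fed) and 13.2 (OP50-fed), and OP50-fed replicate 1 lies to the right of OP50-fed replicate 2 in 32 of 33 genes.

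The OP50-fed samples differed from each other in the same direction in nearly all members. OP50-fed replicate 1 was above OP50-fed replicate 2 in 32 of 33 genes, *rpn-12* being the exception, and in 14 of 14 core genes. In the core, the log2 difference between these replicates lay between 0.32 and 0.43, with a median of 0.39, and it varied less from gene to gene (SD 0.036) than the difference between foods did (SD 0.18). The median was 0.25 in the regulatory particle and -0.034 over all genes tested. The 2004-fed samples differed less, with a median log2 difference of replicate 1 over replicate 2 of -0.082 in the core and -0.0069 in the regulatory particle.

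Some other gene groups moved with that difference and some did not. Over all genes tested, 5755 of 12505 were higher in OP50-fed replicate 1 than in replicate 2. The germline and oocyte markers were higher in OP50-fed replicate 1 than in replicate 2 in 12 of 12 genes, and summed to 21738 and 24534 CPM in 2004-fed samples, against 21699 and 15498 CPM in OP50-fed samples. Cytosolic ribosomal protein genes were higher in OP50-fed replicate 1 in 75 of 77 cases. So were 15 of 18 deubiquitinating enzymes, 7 of 8 genes of p97 and partners and 3 of 3 of ubiquitin and its activating enzyme. The CCT chaperonin had 7 of 8 genes higher there and the COP9 signalosome with eIF3 13 of 17. Embryo markers had 6 of 7, body muscle markers 5 of 6, the regulators and partners 5 of 8, and conjugating enzymes 11 of 20. The V-ATPase genes were higher there in 10 of 20 cases, the cullins and Skp1 proteins in 12 of 24 and the neuron markers in 3 of 6. The genes of SKN-1A processing were higher there in 3 of 6 cases and the intestine markers in 1 of 7. Without TMM scaling, the median difference between the OP50-fed replicates was 0.23 in the core, 0.079 in the regulatory particle and -0.20 over all genes. The part of germline content, or of any other difference between these samples, was not tested.

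The sign of the log2 fold change differed between the fit without OP50-fed replicate 1 and the fit without OP50-fed replicate 2 in 10 of 14 core genes, 5 of 19 regulatory genes and 14.6% of all genes tested. Without OP50-fed replicate 1, the core median was 0.15, against -0.024 over all genes, and 4 core genes were called higher (*pas-2*, *pas-6*, *pbs-2* and *pbs-5*) and 0 lower. In that fit 24.7% of all genes were called higher and 25.1% lower. Without OP50-fed replicate 2, the core median was -0.23, against 0.0047 over all genes, and 0 core genes were called higher and 3 lower (*pas-7*, *pbs-1* and *pbs-6*). In that fit 20.8% of all genes were called higher and 20.3% lower, so the counts of called core genes in the direction that moved were near those of all genes in both fits. In the regulatory particle, *rpn-1*, *rpn-9* and *rpn-10* were called higher without OP50-fed replicate 1 (median 0.038). Without OP50-fed replicate 2, *rpn-1* was called higher and *rpn-5*, *rpn-11* and *rpt-1* were called lower (median -0.18). *rpn-1* was called higher with either OP50-fed sample left out, with log2 fold changes of 0.90 without replicate 1 and 0.49 without replicate 2. In these fits the lone sample was assumed to vary like the samples of the other food.

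**Figure D3:**
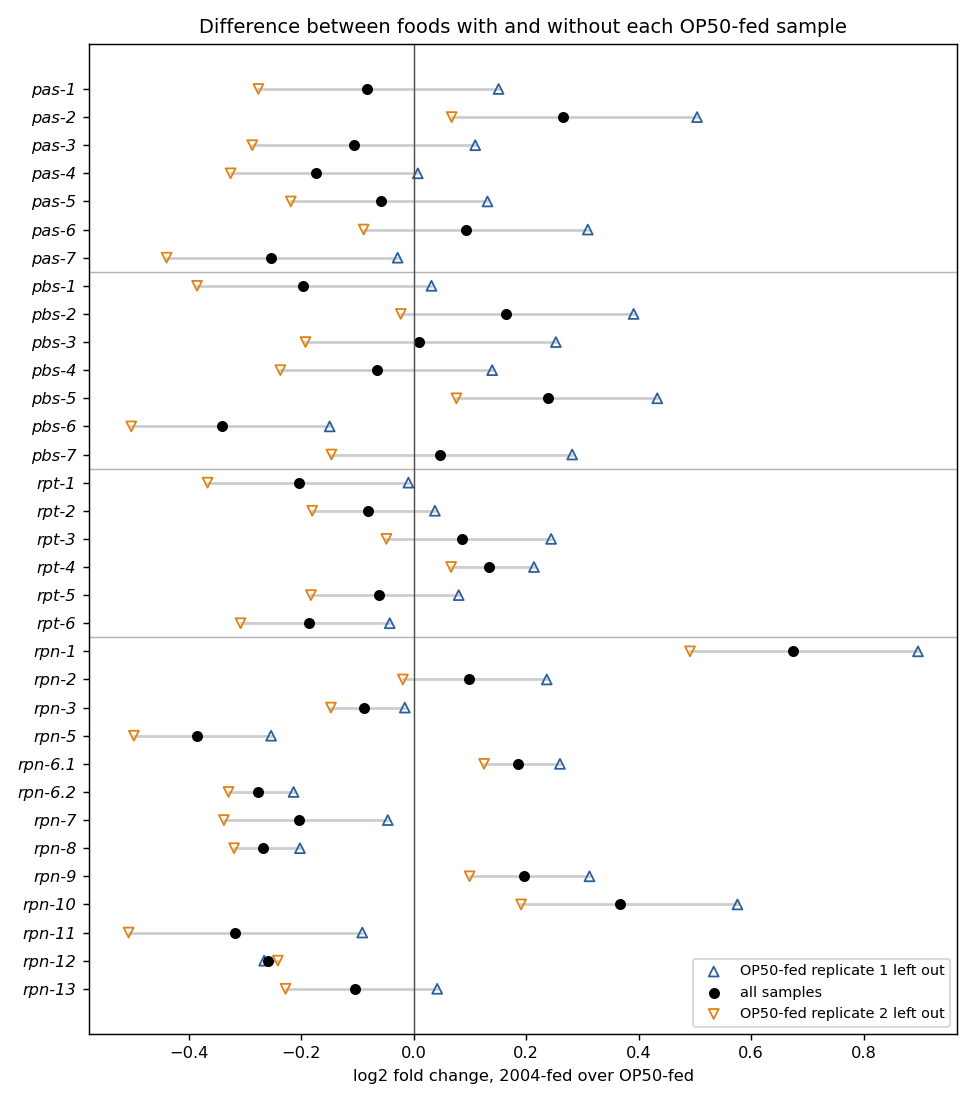
Log2 fold change of each gene, 2004-fed over OP50-fed, with all samples (black), without OP50-fed replicate 1 (blue, upward triangles) and without OP50-fed replicate 2 (orange, downward triangles). Each of the 14 core genes lies higher without replicate 1 (median 0.15) and lower without replicate 2 (median -0.23) than with all samples (median -0.062), whereas *rpn-1* stays positive, at 0.90 and 0.49.

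Because the OP50-fed samples differed by a similar amount across the core, each gene was also set against its own particle, as its share of the particle's summed CPM in the same sample. The core summed to 3706 and 3915 CPM in 2004-fed samples, against 4481 and 3436 CPM in OP50-fed samples, and the regulatory particle to 4987 and 5089 CPM in 2004-fed samples, against 5585 and 4693 CPM in OP50-fed samples. Both sums overlapped between the foods. The shares separated the foods more often than the levels did: the foods did not overlap in 28 of 33 members by share and in 17 of 33 by level, where 73.5% of all genes tested did not overlap by level. By level, these were 4 of 14 core and 13 of 19 regulatory genes. By share, they were 12 core genes, 6 above and 6 below in 2004-fed animals, and 16 regulatory genes, 7 above and 9 below. Shares of a sum are bound to move in opposite directions, and with 2 samples a food they were not tested. Dividing by the particle sum removes the difference that the OP50-fed samples shared across members. Closer OP50-fed values and more separation by share thus follow in part from the measure. Shares were taken up after that difference was seen, and no such count exists over all genes.

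In the core, *pas-2* made up 6.33% and 6.01% of the sum in 2004-fed samples, against 5.001% and 4.856% in OP50-fed samples. *pbs-5* made up 6.08% and 5.27% in 2004-fed samples, against 4.57% and 4.69% in OP50-fed samples. *pbs-6* made up 7.44% and 7.88% in 2004-fed samples, against 9.23% and 9.50% in OP50-fed samples. In each of these genes the OP50-fed samples, far apart by level, were close together by share, since dividing by the core sum removes the difference they shared. In the regulatory particle, *rpn-1* made up 9.53% and 8.48% in 2004-fed samples, against 5.77% and 5.23% in OP50-fed samples, the widest separation of any member. *rpn-10* made up 3.60% and 3.65% in 2004-fed samples, against 2.86% and 2.63% in OP50-fed samples. *rpn-5* made up 4.92% and 5.38% in 2004-fed samples, against 6.56% and 6.64% in OP50-fed samples. The 3 called genes thus lay on the same side of their particle as by level.

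**Figure D4:**
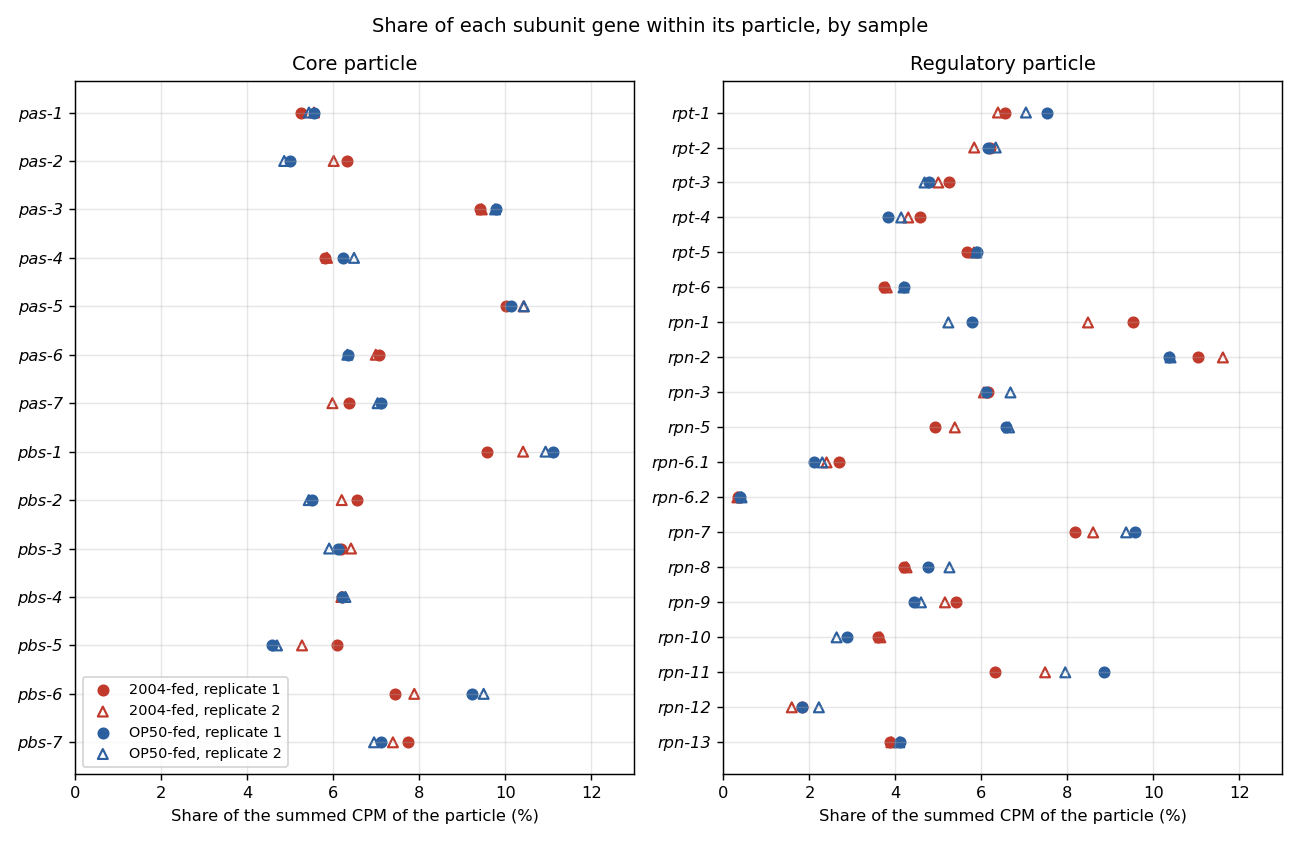
Share of each gene in the summed TMM-scaled CPM of its particle (x axis, percent), in each sample, with the core particle on the left and the regulatory particle on the right. The OP50-fed samples sit close together for most core genes, for example *pbs-6* at 9.23% and 9.50% against 7.44% and 7.88% in 2004-fed samples, and *rpn-1* shows the widest separation.

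The balance of the particles overlapped between the foods. The core to regulatory ratio of summed CPM was 0.743 and 0.769 in 2004-fed samples, against 0.802 and 0.732 in OP50-fed samples. Per kilobase, it was 1.36 and 1.41 in 2004-fed samples, against 1.44 and 1.31 in OP50-fed samples. The OP50-fed samples lay on either side of the 2004-fed samples in both versions.

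Genes that act around the proteasome were counted from lists, against 23.9% called higher and 25.2% called lower over all genes. Among 8 tested regulators and partners of the proteasome, 4 were lower and 0 higher, with a median log2 fold change of -0.32. These were *psme-3*, the homolog of the PA28 gamma activator that can cap the core in place of the regulatory particle (-0.60, adjusted p = 0.0149), *ubh-4*, a deubiquitinating enzyme of the regulatory particle (-0.44, adjusted p = 0.0186), *psmd-9*, the homolog of an assembly chaperone of the ATPase ring in mammals (-0.40, adjusted p = 0.0410), and *aip-1*, an arsenite-inducible protein linked to the proteasome (-0.36, adjusted p = 0.0688). *psme-3* had 70.2 and 89.8 CPM in 2004-fed samples, against 134 and 108 CPM in OP50-fed samples, so its foods did not overlap. DESeq2 called 3 of the 8 lower, limma-voom 4, and edgeR 1 when either 2004-fed sample was left out.

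The 6 genes of SKN-1A processing, the steps that release and activate this factor, included *skn-1* itself, the peptide N-glycanase *png-1*, the protease *ddi-1* and the ER degradation genes *sel-1*, *sel-9* and *sel-11*. EdgeR called 0 of them and 0 had an unadjusted p under 0.05, DESeq2 called 1 higher and limma-voom 0, and the median was -0.025. *skn-1* had 322 and 378 CPM in 2004-fed samples, against 298 and 266 CPM in OP50-fed samples. Its foods did not overlap, but its log2 fold change of 0.31 (SE 0.17) was not called (adjusted p = 0.159). This value sums all *skn-1* transcripts, so it is not specific to SKN-1A. The study listed *skn-1* among its upregulated genes, which it defined by a change over 2-fold at an FDR under 0.1. The value here is a sum per gene, called at any fold, so the calls are not alike. The quantitative RT-PCR of the study found no significant rise of *skn-1*. In its lifespan assay, strain 2004 still lengthened the life of *skn-1* mutants. Of the 8 genes for p97 and its partners, which pull ubiquitinated proteins out of complexes before degradation, 2 were higher and 0 lower (median 0.17). They were the p97 gene *cdc-48.1* (0.49, adjusted p = 0.0915) and the chain-elongating ligase *ufd-2* (0.44, adjusted p = 0.0194). With either 2004-fed sample left out, 0 of the 8 were called.

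Of ubiquitin and its activating enzyme, *ubq-2*, which encodes ubiquitin fused to a ribosomal protein, was lower (-0.60, adjusted p = 0.0889), a call lost with RLE size factors and without either 2004-fed sample. The polyubiquitin gene *ubq-1* (0.031) and the activating enzyme *uba-1* (0.13) were not called. Among 20 tested conjugating enzymes, 4 were higher and 1 lower, the farthest from 0 being *ubc-17* (-1.43, adjusted p = 0.0572), at under 1 CPM in every sample, and *ubc-19* (0.70, adjusted p = 0.0974). Among 18 deubiquitinating enzymes, 5 were higher and 2 lower (*ubh-1* and again *ubh-4*, which is in both lists), led by *usp-4* (0.60, adjusted p = 0.0128) and *usp-48* (0.57, adjusted p = 0.00554). Among 24 cullins and Skp1 proteins, which form the frames of ubiquitin ligases, 5 were higher and 2 lower, led by *skr-21* (2.44) and *skr-16* (0.86, adjusted p = 0.0247). *skr-21* had 19.3 and 17.0 CPM in 2004-fed samples, against 3.27 and 3.44 CPM in OP50-fed samples. It was the only gene of these lists that was called higher past 2-fold, and *ubc-17* the only one called lower past it.

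**Figure D5:**
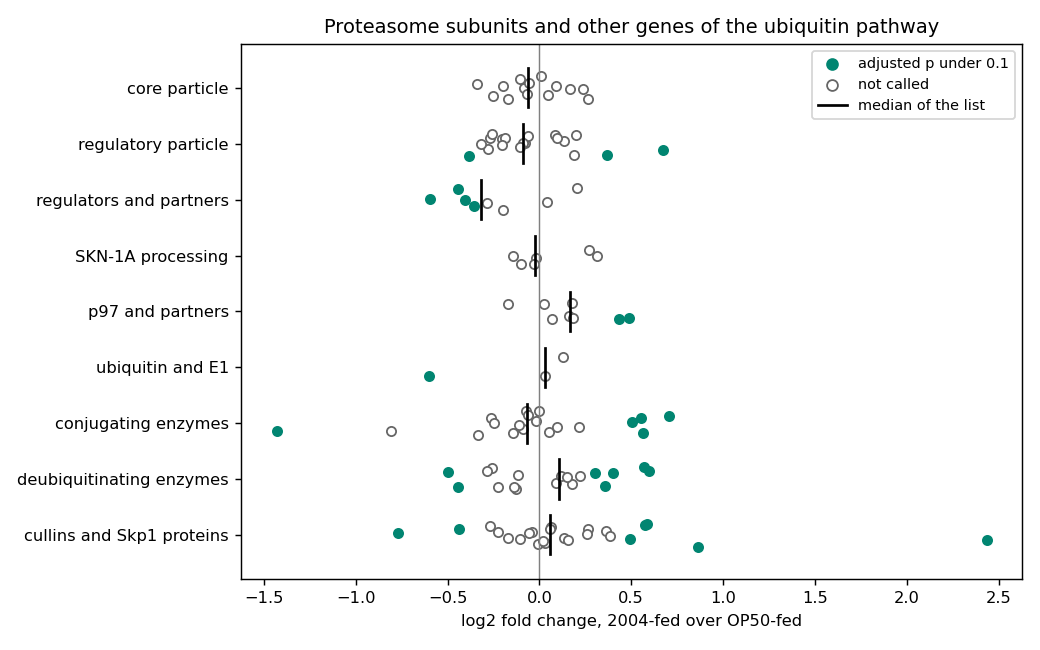
Log2 fold change, 2004-fed over OP50-fed, of the core and regulatory particle genes and of 7 lists of other genes of the ubiquitin pathway, with filled points for an adjusted p under 0.1 and a black bar for each median. The core and regulatory medians (-0.062 and -0.088) lie close to 0, the regulators and partners have a median of -0.32, and *skr-21* stands out at 2.44.

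The lists of other large complexes held larger shares of called genes than the proteasome did. The CCT chaperonin, which folds actin and tubulin, had 5 of 8 genes higher and 0 lower (median 0.53), the V-ATPase, the proton pump of acidic organelles, 10 of 20 higher and 1 lower (median 0.31), and the COP9 signalosome with the initiation factor eIF3, whose subunits resemble those of the lid, 9 of 17 higher and 0 lower (median 0.31). In that last list, *csn-1* was the only csn- gene called (log2 fold change 0.47, adjusted p = 0.0295, edgeR). *csn-2* to *csn-6* were not called, with log2 fold changes between -0.17 (*csn-2*) and 0.098 (*csn-5*). The other called genes were eif-3 genes, so the share of this list is not that of the COP9 signalosome alone. Of the cytosolic ribosomal protein genes, 3 of 77 were higher and 20 lower (median -0.40). The called share was 62.5%, 55% and 52.9% in the first 3 and 29.9% in the ribosomal genes, against 15.8% in the regulatory particle, 0 of 14 in the core and 49.1% over all genes. These differences between complexes were not tested. The numbers of called genes moved when single samples were left out, in these lists and over all genes. With either 2004-fed sample left out, fewer genes were called in each list and over all genes. In those fits the called share of each list lay below that of all genes. With each sample left out, the median ran between 0.33 and 0.73 in the CCT chaperonin and between 0.24 and 0.40 in the V-ATPase. It ran between 0.21 and 0.41 in the COP9 signalosome with eIF3 and between -0.57 and -0.17 in the ribosomal genes. DESeq2 called 42 ribosomal genes lower, limma-voom 25 and edgeR with RLE size factors 17.

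Tested by single transcripts in place of sums per gene, 0 of 45 tested transcripts of the members were called by edgeR, against 17.5% of the 16577 transcripts tested, and 4 had an unadjusted p under 0.05.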

How the data were processed

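The authors trimmed the reads with Trim Galore 0.6.4, aligned them to WBcel235 with HISAT2 2.1.0, processed the alignments with SAMtools 1.7 and estimated counts with StringTie 2.1.1 (versions from the submitters' processing notes). The deposited values were estimated counts for each transcript, given as whole numbers and not normalized, so they were used without rounding. The annotation release and strandedness of the counting are not given in the sources used here.

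Counts were summed over the 57834 transcripts by sequence name, of which 57518 (99.5%) were found in Ensembl release 115 (WBcel235), and 11 had a sequence name that fitted several genes. Coordinates, exonic lengths and overlaps are those of that release. Samples were grouped by food, from their titles. Genes reaching 0.5 CPM in 2 or more samples were tested with edgeR 4.0.16 (glmQLFit and glmQLFTest, TMM) in R 4.3.3, without covariates, over all 12505 genes, and standard errors were taken from the F statistic. The threshold of 0.1, and the fold of 2 beside it, are those of the study. The test was checked on simulated data. Replicates were further apart than sampling noise allows (a chi-square of 31.5 for each degree of freedom in 2004-fed and of 70.0 in OP50-fed samples), so none was treated as a repeat of another.

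The members and lists were chosen with earlier results of these data known. All members are named. Values in every sample are given for the called members, *pbs-1*, *pbs-2*, *pbs-5*, *rpn-6.1*, *rpn-6.2*, *rpn-10* and the highest and lowest member per length of each particle. The lists give fold changes for the called genes with the 2 largest absolute values and for *skn-1*. Other genes with values in every sample (*pas-2*, *pas-7*, *pbs-6*, *rpn-2*, *rpn-13*, *psme-3*, *skr-21*) and other list genes with fold changes (*psmd-9*, *aip-1*, *ubq-1*, *uba-1*) were chosen after their values were seen. The other large complexes were planned by count and median alone, so the fold changes of *csn-1*, *csn-2* and *csn-5* were also added later. Of the listed regulators, 8 of 9 symbols were found. Alternatives were DESeq2 1.42.0, limma-voom (limma 3.58.1), RLE factors, library size alone, 3 other filters, a replicate block, transcripts in place of genes, an adjusted p under 0.05, a fold over 2, and each sample left out. Promoter and protein sequences were not analysed here.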

Additional observations from a re-analysis of the deposited data

How the results depend on the processing

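The particle counts rest on 2 samples a food and moved with single settings. The regulatory particle, with 2 genes higher and 1 lower, had 0 lower with RLE size factors and with a filter of 0.5 CPM in at least 1 sample, 1 higher and 0 lower without a filter and at an adjusted p under 0.05, and 0 in both directions past 2-fold and by transcripts. The core had 1 higher and 1 lower with library size alone. The pathway lists, with 16 higher and 9 lower when *ubh-4*, a member of 2 lists, is counted once, had 5 lower without a filter, 4 lower at an adjusted p under 0.05, and 1 higher and 1 lower past 2-fold. All genes, with 2989 higher and 3154 lower, had 944 and 1851 past 2-fold and 1407 and 1496 by transcripts. The mean core to regulatory ratio, 0.756 in 2004-fed and 0.767 in OP50-fed animals, was 1.39 and 1.38 per kilobase. The ratio per kilobase differs because each gene is divided by its exonic length. The cause of the other changes was not tested, apart from the stricter thresholds. The samples of 1 number did not deviate together (correlation -0.14), so the numbers are not shown to pair them. With the replicate block, the regulatory particle had 1 higher (*rpn-1*) and 0 lower, since *rpn-10* (adjusted p = 0.123) and *rpn-5* (adjusted p = 0.208) were not called, and the pathway lists had 5 lower. A crossed block, added after seeing the data, gave 1 core and 4 regulatory genes lower.

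With each sample left out, core calls ran between 0 and 4 higher and 0 and 3 lower, regulatory calls between 0 and 3 in both directions, pathway calls between 8 and 22 higher and 1 and 9 lower, and calls over all genes between 1995 and 3093 higher and 2382 and 3145 lower. The core median ran between -0.23 and 0.15 and the regulatory median between -0.18 and 0.038. Of the single members, 15 changed sign, none of them called with all samples. Their log2 fold changes ran between -0.28 and 0.15 (*pas-1*), -0.29 and 0.11 (*pas-3*), -0.33 and 0.0074 (*pas-4*), -0.22 and 0.13 (*pas-5*), -0.089 and 0.31 (*pas-6*), -0.39 and 0.032 (*pbs-1*), -0.023 and 0.39 (*pbs-2*), -0.19 and 0.25 (*pbs-3*), -0.24 and 0.14 (*pbs-4*), -0.15 and 0.28 (*pbs-7*), -0.019 and 0.24 (*rpn-2*), -0.23 and 0.042 (*rpn-13*), -0.18 and 0.038 (*rpt-2*), -0.048 and 0.24 (*rpt-3*), and -0.18 and 0.080 (*rpt-5*). Under the other settings, 256 values of single members kept their direction and side of the threshold, 6 lost the call, 2 gained it and 0 changed sign.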

Other observations

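Counts of single transcripts were more uneven than the sums per gene. Of the 33 members, 18 had 1 listed transcript and 15 had several, and of 50 listed transcripts 45 could be tested. EdgeR called 0 of these, against 17.5% of all 16577 transcripts tested, and 4 had an unadjusted p under 0.05. The largest shift was in *rpn-12*, a lid gene, whose transcript ZK20.5.2 had 220 and 19 counts in 2004-fed samples, against 1296 and 1502 counts in OP50-fed samples (log2 fold change -3.61, SE 1.21, adjusted p = 0.151, edgeR). This transcript held 4.91% and 0.520% of the counts of *rpn-12* in 2004-fed samples, against 30.9% and 27.4% in OP50-fed samples. The sum over both transcripts of *rpn-12* was 4482 and 3652 counts in 2004-fed samples, against 4195 and 5472 counts in OP50-fed samples, and that sum was not called. StringTie divides the reads that transcripts share, and the part of that division in this shift was not tested.

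The other 3 transcripts were ZK945.2.1 of *pas-7* (log2 fold change -0.33, adjusted p = 0.148), B0205.3.1 of *rpn-10* (0.62, adjusted p = 0.102) and F57B9.10b of *rpn-6.1* (0.37, adjusted p = 0.108). Each had the sign of its gene. F57B9.10b held 77.8% and 90.7% of the counts of *rpn-6.1* in 2004-fed samples, against 70.5% and 77.0% in OP50-fed samples.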
